A study of Homo sapiens with 6 samples.

Results

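The Kruppel-like factors, a family of zinc finger transcription factors, were followed in PC9ER, a line of human lung cancer (NSCLC) that the series title describes as EGFR-driven and resistant to gefitinib. Gefitinib inhibits the kinase of EGFR, the epidermal growth factor receptor. Members were chosen by symbol from a list of 10 KLF genes, of which 9 had a row among the 15376 coding genes of the deposited expression table. No value of KLF13 was analysed here. RNA was sequenced in 6 libraries, 3 from cells that received 1 µM gefitinib over the final 6 h and 3 from control cells, whose treatment label is DMSO. According to the labels, cells were kept in medium with 10% serum, held for 72 h with DBZ, a Notch inhibitor, or its vehicle DMSO, and then withdrawn from serum overnight. All 6 libraries, with gefitinib or without, are those with the vehicle for 72 h, and no library with DBZ was analysed here. The same protocol text accompanies every sample, and from it the serum handling of controls is not certain. All libraries come from 1 cell line, and the labels do not say that replicates were separate cultures, so p-values measure the spread between these libraries, which may be technical.

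The proteins of this family share a block of zinc fingers at the carboxy terminus that reads GC-rich and CACCC-type DNA, while the rest of the protein differs from member to member and decides which partners are recruited. KLF2, KLF4, KLF5, KLF6 and KLF7 are mostly known as activators, KLF3 as a repressor that binds the corepressor CtBP, and KLF9, KLF10, KLF11 and KLF13 as factors that bind the corepressor SIN3. Many of the genes are early targets of growth factor, stress or hormone signals, and in epithelia KLF4 and KLF5 are best known for differentiation and proliferation.

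The stretches of DNA before KLF2, KLF6 and KLF7 are shown because KLF2 had the largest difference among the members and KLF6 and KLF7 were lower with gefitinib. RefSeq (GRCh38.p14) gave 13 promoter windows for 8 of the 10 listed genes. KLF3 and KLF10 had no window, so no bases before them were searched or shown. Each line below holds the bases of the outermost window that lie before the gene in GENCODE 29, read 5′ to 3′ on the gene's strand, at chr19:16324576-16324816 (plus strand) for KLF2, chr10:3785282-3785459 (minus strand) for KLF6 and chr2:207167268-207167496 (minus strand) for KLF7. Capitals mark every match to the 10 motifs searched on both strands, which were the GC box GGGCGG, the CACCC box CCACCC, the E-box CACGTG, the AP-1 site TGANTCA, the CRE half-site TGACGT, the FOXO site TGTTTAC, the TATA box TATAAA, the ETS core GGAAGT, the CArG box and the MEF2 box.
KLF2: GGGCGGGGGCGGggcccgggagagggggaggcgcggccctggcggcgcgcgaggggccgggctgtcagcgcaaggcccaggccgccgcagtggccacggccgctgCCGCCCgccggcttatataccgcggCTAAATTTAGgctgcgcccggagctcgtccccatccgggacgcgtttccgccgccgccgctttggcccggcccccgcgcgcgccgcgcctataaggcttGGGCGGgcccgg
KLF6: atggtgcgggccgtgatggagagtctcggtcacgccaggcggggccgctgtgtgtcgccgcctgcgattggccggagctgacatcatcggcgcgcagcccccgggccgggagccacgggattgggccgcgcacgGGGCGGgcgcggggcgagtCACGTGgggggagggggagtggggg
KLF7: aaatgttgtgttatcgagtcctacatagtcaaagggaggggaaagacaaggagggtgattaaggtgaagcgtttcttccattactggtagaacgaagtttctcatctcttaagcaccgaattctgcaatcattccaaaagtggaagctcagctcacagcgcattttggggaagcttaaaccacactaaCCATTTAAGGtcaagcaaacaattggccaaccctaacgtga
The KLF2 stretch held 4 GC boxes, of which the first pair lie next to each other, and 1 MEF2 box. GC boxes were present in 42.6% and MEF2 boxes in 0.515% of 35116 windows, each taken over the 250 bases before an annotated start. The KLF6 stretch held 1 GC box and 1 E-box. Over the full 250 bases before its annotated start, KLF6 had 2 GC boxes, 1 E-box and 1 ETS core, and 6.34% of windows held an E-box and 19.5% an ETS core. In the KLF7 stretch the only match was 1 CArG box, which is the letters bound by serum response factor and was present in 1.16% of windows. KLF7 has 4 annotated windows, and of the others 1 held 4 GC boxes, 1 held 2 CACCC boxes and 1 held 1 E-box. An E-box and an ETS core were also found together in the window of KLF4 and in 1 window of KLF11. Among the other members, GC boxes were found in the window of KLF4, in 1 of 2 windows of KLF5, in both windows of KLF11 and in that of KLF13, and the single window of KLF9 had none of the 10 motifs. Further matches were 2 CRE half-sites in 1 window of KLF11, 1 CRE half-site and 1 CACCC box in that of KLF13, and 1 TATA box in 1 window of KLF5. Member windows with a GC box were 69.2% to 80% G and C. These matches describe the letters and do not show binding.

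The libraries held between 13674237 and 20013453 coding reads for gefitinib replicates 1 and 2 and 38581498 for gefitinib replicate 3, and between 16211544 and 25639050 for the control replicates. Values are the authors' scaled read counts, which sum to 18085800 in each library and are called normalised read counts here. Control replicate 1 stood apart from the other control libraries on principal component 2, which held 7.97% of the variance, at 31.9 against -9.49 and -23.6. Of 8 epithelial markers with a row, 6 had a mean over 100, namely EPCAM, CDH1, KRT7, KRT8, KRT18 and KRT19, while NAPSA and SFTPB did not. Their list had a summed level from 67758 to 70704 in gefitinib and from 81369 to 116588 in control libraries. All 4 fibroblast and all 6 blood markers with a row had means of at most 100. Of 4 endothelial markers only PECAM1 passed that level, and the list's sum was 149 to 177 in gefitinib and 1180 to 1360 in control libraries. Whether any of these shifts takes part in the results below was not tested.

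The comparison asks which Kruppel-like factor transcripts differ after the short exposure to gefitinib. KLF2 was higher with gefitinib, and KLF6, KLF3 and KLF7 were lower. KLF10 was slightly higher at the edge of the test's threshold, and KLF4, KLF5, KLF9 and KLF11 did not pass it. By limma's test on log2(value + 1), with p-values adjusted by Benjamini and Hochberg over all 15229 genes tested and a threshold of 0.05, 2 of the 9 members were higher and 3 were lower. Among all genes tested, 28.3% were higher and 22.8% lower, together 51.1%, so the share of members called is close to that of the whole table. The median log2 difference was -0.16 over the members and 0.10 over all genes tested. Groups were separate in all libraries for 7 of 9 members, against 58% of all genes tested. Of these, 3 were higher and 4 lower, against 32.3% and 25.7% of all genes. At least 2-fold on the log2(value + 1) scale, 1 member was higher and 2 were lower, where 12.4% and 9.92% of all genes were. On recovered reads edgeR called 1 member higher and 3 lower, where it called 30.5% and 30.8% of 12167 genes, together 61.3%. DESeq2 gave the same numbers of members, where it called 26.6% and 26.8% of 14048 genes, together 53.3%. In a bulk sample, fewer cells with a transcript and less of it per cell cannot be told apart.

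**Figure D1:**
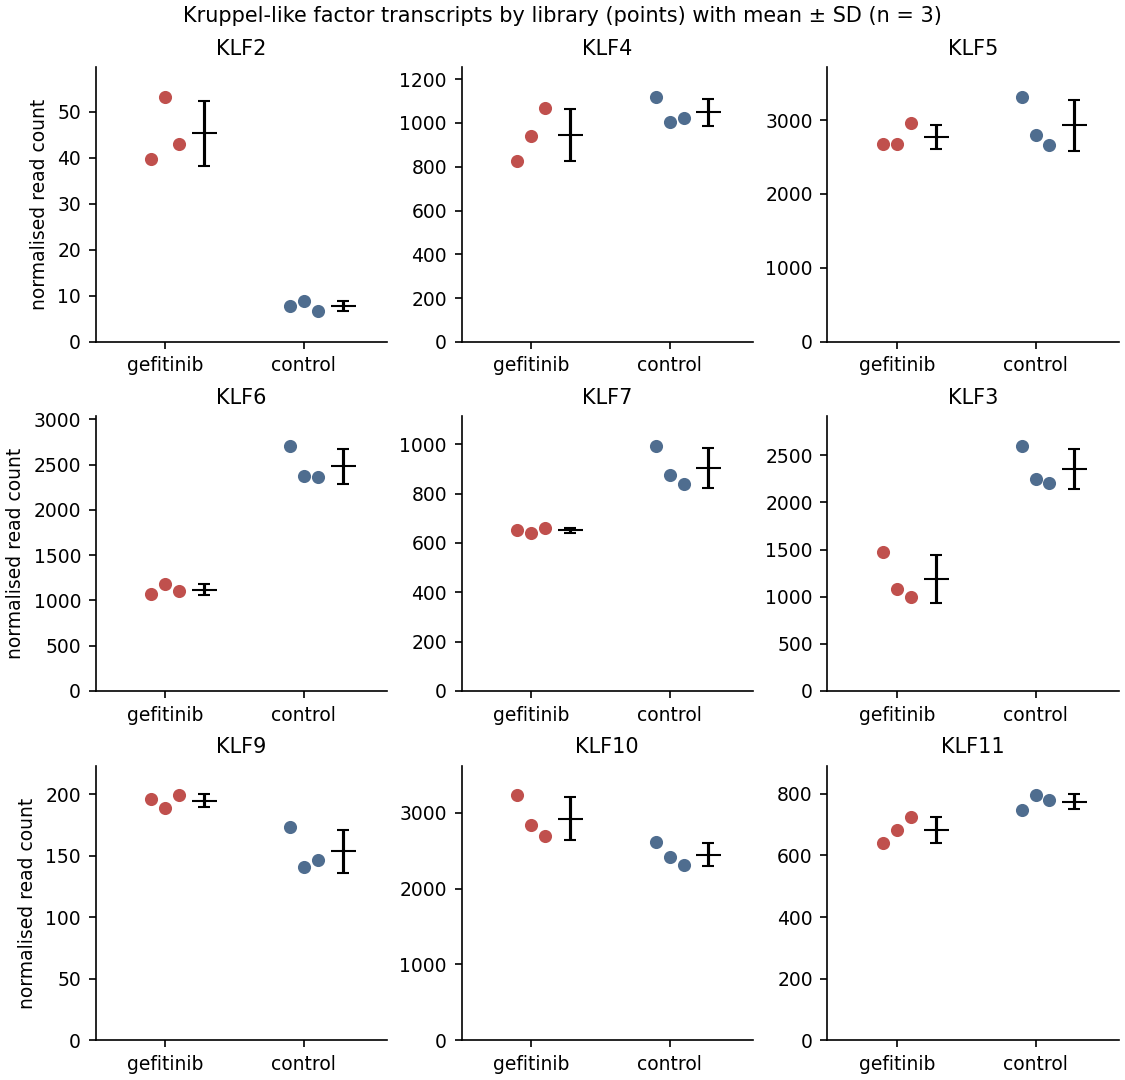
Normalised read counts (vertical axis, from 0) of the 9 Kruppel-like factor genes in each gefitinib and control library, with the mean and SD of 3 libraries beside the points. The groups are separate for every gene drawn except KLF4 and KLF5, with KLF2 at 39.7 to 53.3 in gefitinib and 6.76 to 8.92 in control libraries.

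Among the activators, KLF2, best known for keeping endothelial cells and lymphocytes quiescent, had the largest difference. KLF2 (chromosome 19, 16324817 to 16327874, GRCh38) had 39.7, 53.3 and 43.1 normalised reads in gefitinib libraries, against 7.76, 8.92 and 6.76 in control libraries. Its lowest gefitinib library was over 4 times its highest control library. The reads behind these values were few, at 30, 59 and 92 in gefitinib and 11, 8 and 7 in control libraries. KLF2 rose by 2.39 ± 0.29 (SE) on the log2(value + 1) scale (95% interval 1.73 to 3.06, limma adjusted p = 0.000140). That scale understates the change of low genes: the depth-corrected ratio of summed reads was 5.84, with an exact 95% interval from 3.86 to 9.18 that covers counting error only. Ordered from the largest rise, KLF2 ranked 324 among 15229 genes tested.

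KLF6, a broadly expressed factor that growth signals induce early and that is often described as a tumour suppressor, was the member with the smallest p. KLF6 (chromosome 10, 3775996 to 3785281) had 1070, 1182 and 1108 normalised reads in gefitinib libraries, against 2707, 2374 and 2367 in control libraries. The gefitinib libraries lay within a narrow band, and all were below the lowest control library. The log2 difference of KLF6 was -1.15 ± 0.09 (SE; 95% interval -1.35 to -0.95, limma adjusted p = 9.88e-06), which ranked 1320 from the largest fall.

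KLF7, known from the outgrowth of neurons, followed in the same direction with a smaller difference. KLF7 (chromosome 2, 207074137 to 207167267) had 653, 641 and 661 normalised reads in gefitinib libraries, against 993, 877 and 839 in control libraries. Every gefitinib library was below every control library, and the gefitinib values had an SD of 10.2. The log2 difference was -0.47 ± 0.10 (SE; 95% interval -0.69 to -0.24, limma adjusted p = 0.00357).

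KLF4 and KLF5, the members with the best known roles in epithelia, did not pass the test. KLF4 (chromosome 9, 107484852 to 107490482), a factor of epithelial differentiation that is also used to reprogram cells, had 827, 940 and 1066 normalised reads in gefitinib libraries, against 1120, 1005 and 1024 in control libraries. The groups overlapped, and the log2 difference was -0.16 ± 0.11 (SE; 95% interval -0.41 to 0.09, limma adjusted p = 0.268). KLF5 (chromosome 13, 73054976 to 73077542), which drives proliferation in basal epithelial cells, had 2677, 2679 and 2958 in gefitinib libraries, against 3316, 2797 and 2667 in control libraries. Here too the groups overlapped, with a log2 difference of -0.07 ± 0.10 (SE; 95% interval -0.30 to 0.15, limma adjusted p = 0.566). These intervals leave room for a change of up to 0.41 in KLF4 and 0.30 in KLF5 on the log2 scale in the downward direction. KLF2 and KLF4 share much of their function in blood vessels. Relative to KLF4 per exon length, the level of KLF2 stood at 8.70%, 10.3% and 7.33% in gefitinib libraries and at 1.26%, 1.61% and 1.20% in control libraries.

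KLF3, the repressor that works through CtBP, was lower with gefitinib by about as much as KLF6. KLF3 (chromosome 4, 38664196 to 38701042) had 1473, 1079 and 998 normalised reads in gefitinib libraries, against 2600, 2250 and 2210 in control libraries. Gefitinib replicate 1 was the highest of its group but remained below all control libraries. The log2 difference of KLF3 was -1.01 ± 0.14 (SE; 95% interval -1.33 to -0.68, limma adjusted p = 0.000340). The antisense gene KLF3-AS1 covers 4.22% of the exon bases of KLF3, and whether counting used the strand is not stated, so reads from that part are of uncertain origin.

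The members that bind SIN3 had smaller log2 differences than KLF6 or KLF3, in both directions. KLF10 (chromosome 8, 102648779 to 102655902), first described as an early gene of the TGF-beta response, had 3234, 2842 and 2690 normalised reads in gefitinib libraries, against 2616, 2419 and 2312 in control libraries. The groups were separate, by a narrow gap between gefitinib replicate 3 and control replicate 1. KLF10 rose by 0.25 ± 0.09 (SE) on the log2 scale (95% interval 0.04 to 0.46, limma adjusted p = 0.0462). The call was lost in 10 of 17 alternatives: with TMM factors the adjusted p was 0.165, and in edgeR's test on recovered reads it was 0.138. Without gefitinib replicate 1 it was 0.140, without gefitinib replicate 2 0.105, and without control replicates 2 and 3 in turn 0.131 and 0.122, the adjusted p of all alternatives lying between 0.0112 and 0.210.

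KLF9, a gene that glucocorticoid and thyroid hormones induce, had a difference of similar size that missed the threshold. KLF9 (chromosome 9, 70384597 to 70414624) had 196, 189 and 199 normalised reads in gefitinib libraries, against 174, 141 and 147 in control libraries. The gefitinib values were all above the control values, among which control replicate 1 was the highest. The log2 difference was 0.35 ± 0.16 (SE; 95% interval -0.01 to 0.70, limma adjusted p = 0.100), and without control replicate 1 it was 0.44 with a limma adjusted p of 0.0329, the adjusted p of all alternatives lying between 0.0329 and 0.270.

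KLF11, the closest relative of KLF10 and also induced by TGF-beta, leaned the other way. KLF11 (chromosome 2, 10042849 to 10054836) had 641, 681 and 726 normalised reads in gefitinib libraries, against 749, 797 and 779 in control libraries. The groups did not overlap, yet the log2 difference of -0.18 ± 0.10 (SE; 95% interval -0.40 to 0.03) had a limma adjusted p of 0.142. With the GC trend removed it was -0.24 with a limma adjusted p of 0.0268, the adjusted p of all alternatives lying between 0.0268 and 0.328. An antisense gene, AC104794.4, covers 9.07% of the exon bases of KLF11.

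**Figure D2:**
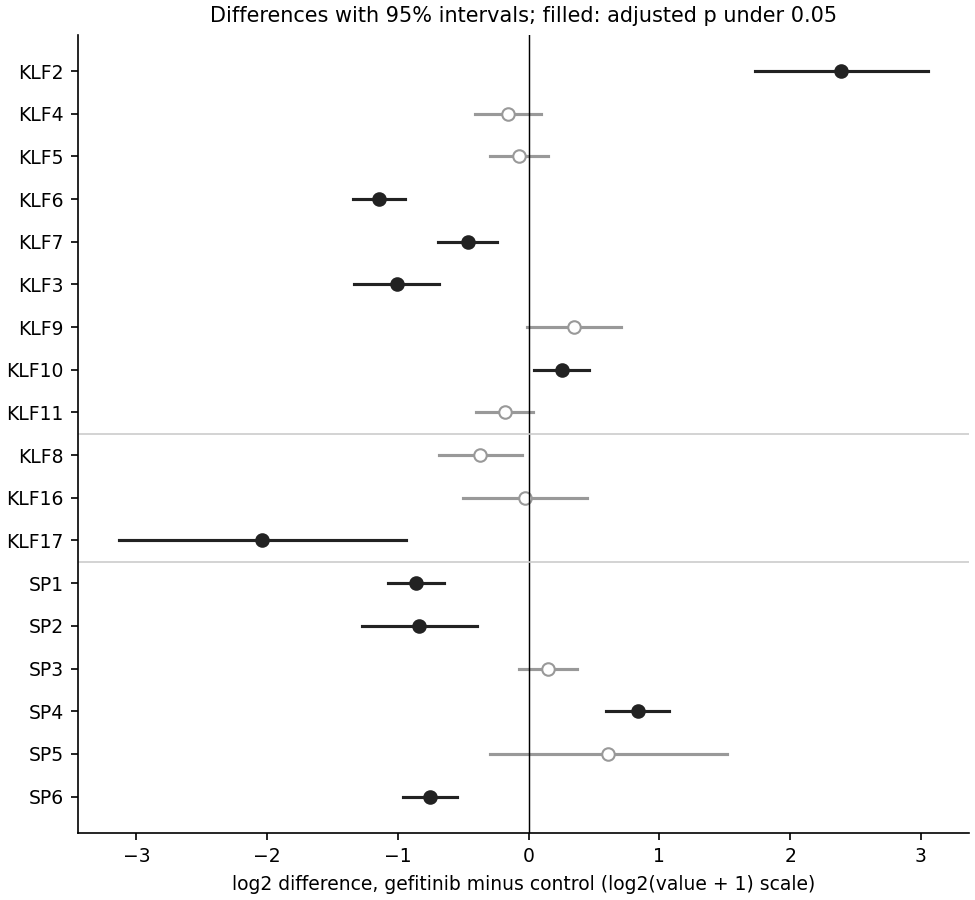
Log2 differences, gefitinib minus control (points, after adding 1 to each value) with 95% intervals (lines) for the 9 Kruppel-like factors at the top, 3 further KLF genes and 6 SP genes, where filled points have a limma adjusted p under 0.05. KLF2 lies at 2.39, far to the right of KLF10 at 0.25, and KLF6, KLF3 and KLF7 lie at -1.15, -1.01 and -0.47.

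Levels of different genes were compared as normalised reads per kb of exon, with exon lengths from GENCODE 29. These lengths join the exons of all annotated transcripts of a gene. Which transcripts the cells express was not tested, so the order between genes depends on this choice of length. In gefitinib libraries KLF10 at 730 ± 70.1 (SD, n = 3) and KLF5 at 712 ± 41.6 were the most abundant, and their libraries overlapped, so their order is not resolved. In control libraries KLF5 at 752 ± 88.2 stood above KLF10 at 612 ± 38.6 in every library. KLF4 at 258 ± 32.8, KLF3 at 188 ± 40.4 and KLF6 at 182 ± 9.28 per kb came next in gefitinib libraries, with overlapping libraries between neighbours. In control libraries KLF6 at 404 ± 31.6 was above KLF3 at 374 ± 34.1 in every library, although their ranges overlapped. Both lay above KLF4 at 287 ± 16.8 per kb. KLF11, KLF7, KLF9 and KLF2 followed in that order in both groups without overlap, down to KLF2 at 22.5 ± 3.51 in gefitinib and 3.87 ± 0.538 in control libraries.

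The summed level of the 9 members per kb was 2398, 2299 and 2352 in gefitinib libraries, against 2973, 2641 and 2571 in control libraries. All gefitinib sums were below all control sums. KLF5 and KLF10 made up 30.3% and 31.1% of the mean sum in gefitinib libraries and 27.6% and 22.4% in control libraries. KLF6 made up 7.76% in gefitinib libraries and 14.8% in control libraries. KLF2, although it had the largest fold, was 0.957% of the sum in gefitinib and 0.142% in control libraries. Relative to KLF10 per kb, KLF6 was at 21.6%, 27.1% and 26.8% in gefitinib libraries, against 67.5%, 64.0% and 66.8% in control libraries.

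**Figure D3:**
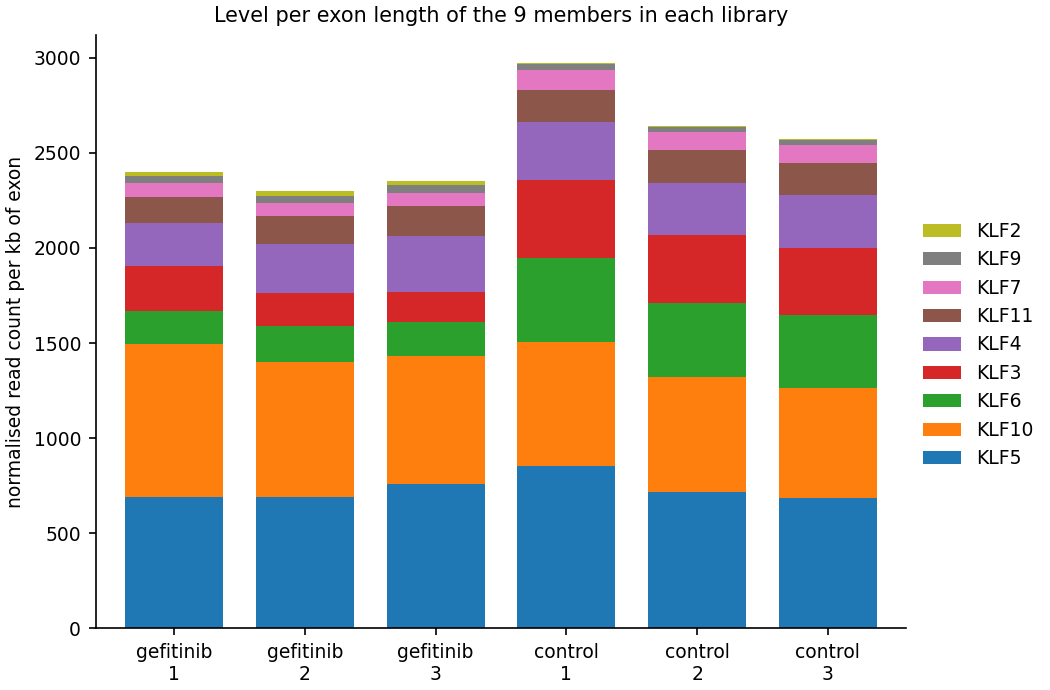
Normalised reads per kb of exon (vertical axis, from 0) of the 9 members, stacked for each gefitinib and control library. The stacks reach 2299 to 2398 in gefitinib and 2571 to 2973 in control libraries, and the bands of KLF6 and KLF3 are thinner in the gefitinib libraries.

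Of 8 further KLF genes, 6 had a row, and limma called 1 of these, which was lower, where it called 51.1% of all genes tested and 22.8% were lower. KLF17, a gene known from germ cells and early embryos (chromosome 1, 44118850 to 44135140), had 6.61, 9.04 and 1.88 normalised reads in gefitinib libraries, against 31.0, 22.3 and 19.3 in control libraries. These rest on 19 reads in all gefitinib and 84 in all control libraries, a depth-corrected ratio of 0.190 with an exact 95% interval from 0.109 to 0.315 for counting error. Its log2 difference was -2.04 ± 0.49 (SE), with a limma adjusted p of 0.00655. KLF8, another repressor that binds CtBP, had 431, 473 and 526 in gefitinib libraries, against 734, 586 and 540 in control libraries, with a log2 difference of -0.37 ± 0.14 and a limma adjusted p of 0.0533. Without control replicate 1 the difference of KLF8 was -0.24, and over all alternatives it lay between -0.51 and -0.24. It passed the threshold in 9 of 17 alternatives, among them edgeR on recovered reads (adjusted p = 0.0322), the adjusted p ranging from 0.00164 to 0.157. KLF16, a relative of KLF9 and KLF13, had 466, 428 and 457 in gefitinib libraries, against 312, 556 and 555 in control libraries. Control replicate 1 alone was low, and without it the log2 difference of KLF16 was -0.30 with a limma adjusted p of 0.0242, against -0.03 and 0.925 with all libraries and a range from 0.0242 to 0.983. The antisense gene AC012615.3 covers 16.3% of its exon bases. KLF1, KLF12 and KLF15 had between 1 and 4 reads in all libraries of a group, too few to read a direction from.

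The SP factors, which carry the same kind of zinc fingers and bind the same GC boxes, included calls in both directions. Of 7 SP genes with a row, 1 was higher, 3 were lower and 3 did not pass, so 4 of 7 were called, close to the 51.1% of all genes tested. SP1, the widely expressed founding member, had 4708 ± 494 normalised reads in gefitinib and 8532 ± 548 in control libraries (SD, n = 3) and fell by 0.86 ± 0.09 (SE; limma adjusted p = 7.03e-05). SP6, known from tooth and skin epithelium, and SP2 fell by 0.75 ± 0.09 and 0.84 ± 0.19. SP4, known from neurons, had 1690 ± 98.1 in gefitinib and 952 ± 117 in control libraries and rose by 0.83 ± 0.11 (limma adjusted p = 0.000186). SP3, the close relative of SP1, had 4989 ± 266 in gefitinib and 4529 ± 571 in control libraries (limma adjusted p = 0.252), and 0.00742 without control replicate 1, when the log2 difference was 0.25. With the GC trend removed the difference of SP3 was -0.011, the range of adjusted p over all alternatives being 0.00742 to 0.897. SP5 and SP7 had 36 and 2 reads in all gefitinib libraries and 19 and 2 in all control libraries.

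Partners and regulators of the family were followed in 7 lists, and limma called members of each in one or both directions. Among 11 corepressor genes, 2 were higher, 5 were lower and 4 did not pass, with a median log2 difference of -0.09. Of all genes tested 28.3% were higher and 22.8% lower, together 51.1%, with a median of 0.10, and the counts of all 7 lists are to be read against these shares. CTBP2, a partner of KLF3, had 403 ± 18.1 normalised reads in gefitinib and 758 ± 98.0 in control libraries, a log2 difference of -0.90 ± 0.12. CTBP1, the other CtBP gene of the list, is named after its values were seen. It had 319 ± 72.5 in gefitinib and 292 ± 71.2 in control libraries, with overlapping groups. Its log2 difference was 0.14, with a limma adjusted p of 0.638. KDM1A, a histone demethylase of the CoREST complex, changed by -1.25 ± 0.07, while RCOR1, the scaffold of that complex, and HDAC3 rose by 0.96 ± 0.08 and 0.56 ± 0.07. Of 4 acetyltransferase genes that coactivate KLF proteins, 2 rose and 0 fell, where 28.3% of all genes tested were higher and 22.8% lower. Their median log2 difference was 0.65, against 0.10 for all genes. CREBBP had 3453 ± 192 in gefitinib and 1590 ± 312 in control libraries, a log2 difference of 1.14 ± 0.13 (SE). EP300 had 7596 ± 574 in gefitinib and 4595 ± 892 in control libraries, a difference of 0.74 ± 0.14. KAT2B and KAT2A had limma adjusted p of 0.0946 and 0.367.

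The pathway from the kinase ERK5 to MEF2 factors is known to switch on KLF2 and KLF4 in endothelial cells. A list of 10 genes around this pathway mixes kinases and MEF2 factors with the deacetylase genes HDAC4, HDAC5 and HDAC7. Of the 10, 6 were higher, 1 was lower and 3 did not pass, where 28.3% of all genes tested were higher and 22.8% lower. HDAC5 is among the higher genes and HDAC7 is the lower one, so these counts and the median give no direction of the pathway. The median log2 difference was 0.48, against 0.10 over all genes tested. This list, like the others, was chosen with earlier results of these data known. MAPK7, the gene of ERK5 itself, is named here after its values were seen. It had 308 ± 66.7 normalised reads in gefitinib and 292 ± 50.7 in control libraries (SD, n = 3), with overlapping groups, a log2 difference of 0.07 and a limma adjusted p of 0.788. MAP3K3, a kinase at the top of the pathway, rose by 1.61 ± 0.15 (SE, limma adjusted p = 2.33e-05). It had 1058, 910 and 846 normalised reads in gefitinib libraries, against 257, 311 and 354 in control libraries. MEF2D, a MEF2 factor, had 1752, 1830 and 1849 in gefitinib libraries, against 631, 768 and 796 in control libraries, and rose by 1.31 ± 0.11. Both genes were separate between the groups in every library. HDAC5 and HDAC7, deacetylases that hold MEF2 factors silent, moved apart, HDAC5 by 1.21 ± 0.18 and HDAC7 by -0.81 ± 0.17. Transcript levels do not measure the activity of these kinases or factors.

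Genes of the TGF-beta pathway, which induces KLF10 and KLF11, were split: 3 of 10 rose, 5 fell and 2 did not pass (median log2 difference -0.33), where 28.3% of all genes tested were higher and 22.8% lower. The receptor genes TGFBR1 and TGFBR2 had 2734 ± 623 and 665 ± 78.2 normalised reads in gefitinib libraries, against 6881 ± 759 and 1819 ± 105 in control libraries. SMAD3, which carries the signal to the nucleus, changed by -0.83 ± 0.07 (SE), and SKI, a repressor of SMAD proteins, rose by 1.77 ± 0.11. Among the glucocorticoid receptor gene and genes it induces along with KLF9, 3 of 6 were higher, 2 lower and 1 did not pass (median 0.26), against the same 28.3% and 22.8% of all genes. FKBP5 and PER1 rose by 1.65 ± 0.10 and 1.89 ± 0.22, SGK1 changed by -1.07 ± 0.17, and the receptor gene NR3C1 itself by -0.52 ± 0.10.

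Of 10 genes for enzymes that add or remove ubiquitin on KLF proteins, 3 were higher, 3 lower and 4 did not pass (median -0.17), near the 28.3% and 22.8% of all genes tested. FBXO32 and BTRC rose by 1.68 ± 0.11 and 0.88 ± 0.10, and SMURF2 and SMURF1 changed by -0.97 ± 0.11 and -0.55 ± 0.08. With TMM factors 5 of these genes were lower, and with the GC trend removed 6. Of 20 tested genes that KLF proteins regulate in other cells, 8 were higher, 8 lower and 4 did not pass (median 0.23), where 51.1% of all genes tested were called in either direction. FGFBP1, a target of KLF5, had 101, 103 and 116 normalised reads in gefitinib libraries, against 812, 695 and 642 in control libraries, a log2 difference of -2.73 ± 0.15. MYC and the cyclin gene CCND1 changed by -2.38 ± 0.11 and -1.10 ± 0.08, and the stress factor gene ATF3 rose by 3.34 ± 0.29. The list, which shares TGFB1 and SMAD7 with the TGF-beta list, was drawn from other cell types. Whether any KLF protein acts on these genes in PC9ER cells was not tested.

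**Figure D4:**
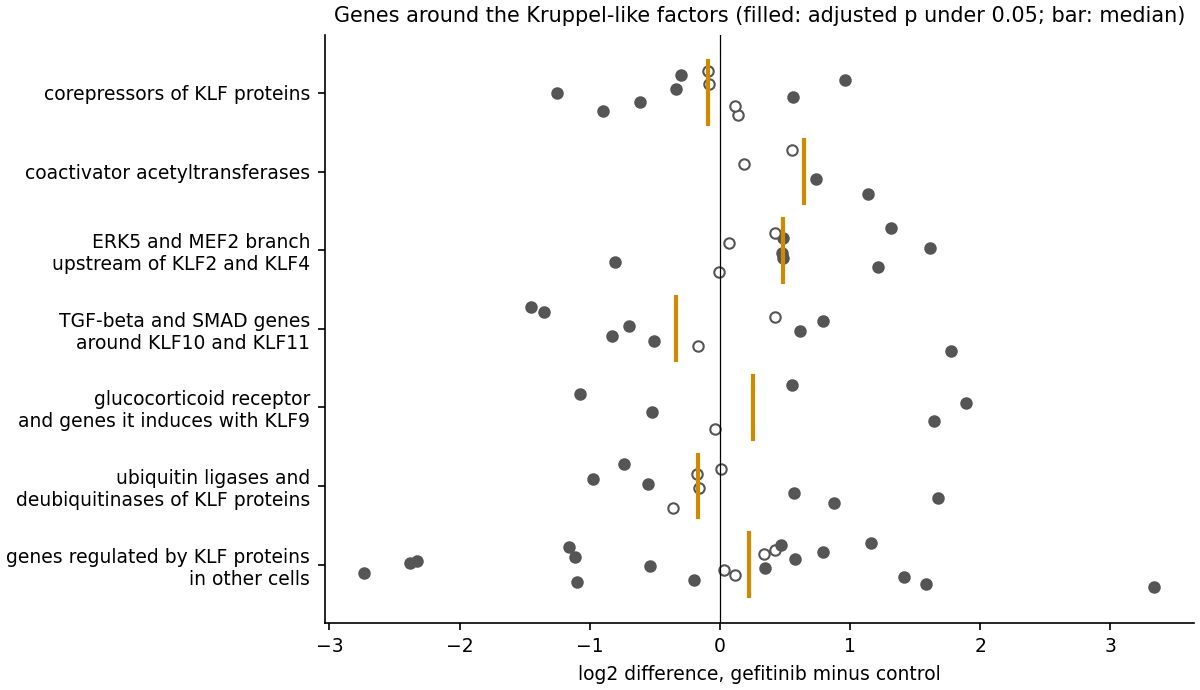
Log2 differences, gefitinib minus control, of the tested genes in 7 lists of partners, regulators and targets. Each point is 1 gene in 1 list, filled where the limma adjusted p is under 0.05. Vertical bars mark the list's median. TGFB1 and SMAD7 are drawn in both the TGF-beta list and the list of genes regulated by KLF proteins. Medians run from -0.33 for TGF-beta and SMAD genes to 0.65 for coactivator acetyltransferases.

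The calls of KLF2, KLF6, KLF3 and KLF7 were kept with their direction in all 17 alternatives. Across these, the log2 difference of KLF2 was between 1.97, with a pseudocount of 5, and 2.48, that of KLF6 between -1.22 and -1.08, that of KLF3 between -1.18 and -0.90 and that of KLF7 between -0.56 and -0.40. KLF4 was not called in any alternative, with a difference from -0.25 to -0.07 and an adjusted p from 0.0702 to 0.623. KLF5 was not called either, with an adjusted p from 0.172 to 0.822, and its difference was 0.019 without control replicate 1.

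**Figure D5:**
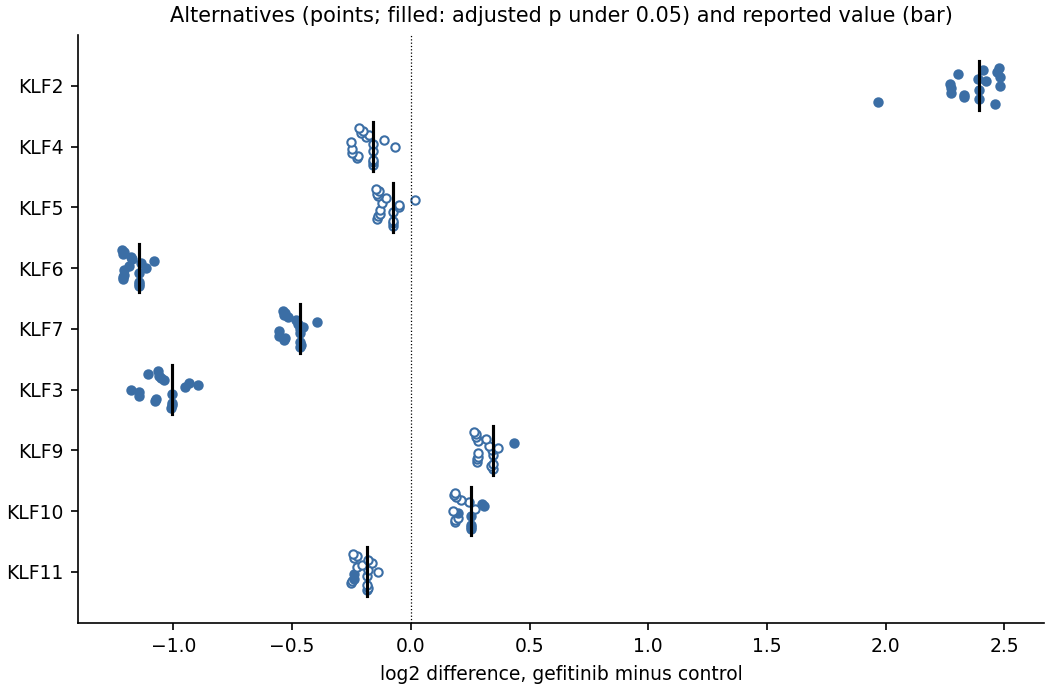
Log2 difference, gefitinib minus control, of each member under 17 alternatives of scaling, pseudocount, filter, test, block and left-out library (points, filled where the adjusted p is under 0.05), with the reported value as a bar. All points of KLF2, KLF6, KLF7 and KLF3 are filled and on 1 side of 0, while those of KLF10, KLF9 and KLF11 are partly filled.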

How the data were processed

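RNA-seq libraries of PC9ER cells, 3 with gefitinib and 3 controls, were grouped by title. STAR, HTSeq and GRCh38 appear in the submitters' processing notes, without versions, and no strand setting is stated. The deposited signal is gene read counts that, per the file headers and values, the authors scaled to 18085800 in each library. All values were whole reads when scaled back, to within 0.01 read. A further table's 6 per-sample columns match no label and were not used, and only its gene IDs and symbols served for look-up. Of 15376 rows, 147 were 0 in every library.

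Log2(value + 1) was tested 2-sided with limma-trend (limma 3.58.1 in R 4.3.3), p-values were adjusted by Benjamini and Hochberg, and the threshold was 0.05; log2 differences are gefitinib minus control. The test was also tried on simulated data, and no result here rests on that trial. Alternatives were pseudocounts of 0.5 and 5, a mean of 10 or more, TMM and DESeq2 size factors, a GC trend removed by loess (span 0.3), a replicate block, leaving out each library, and edgeR 4.0.16, limma-voom and DESeq2 1.42.0 on recovered reads. All library pairs within a group differed by more than sampling noise. The 10 members, the lists and the tests were chosen with earlier results of these data known. Genes given with values are all KLF and SP rows and, in each other list, the 4 with the smallest p. MAPK7 and CTBP1 were added after their values were seen. Intervals on reads cover counting error only.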

Additional observations from a re-analysis of the deposited data

How the results depend on the processing

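The number of members called higher was 2, and became 1 with TMM factors, DESeq2 size factors, the GC trend removed, edgeR, limma-voom and DESeq2, because KLF10 lost its call. It ranged from 1 to 3 when each library was left out in turn. The number called lower was 3, and 4 with the GC trend removed, alone or with the block, because KLF11 was added. Over all genes, 3467 to 4582 were higher and 2861 to 4593 lower. With the replicate block, 4438 genes were higher and 3552 lower and the calls of the members did not change. Same-numbered libraries correlated in their deviations from the group means between 0.0444 and 0.127. The numbers were not treated as pairs because the labels do not say that they mark a shared batch. Of the 6 libraries, 5 correlated best with their own number. The direction turned for KLF5 (0.019 without control replicate 1, -0.14 to 0.019 over left-out libraries), for SP3 (-0.011 with the GC trend removed, with and without the block), for KLF16 (0.0080 without gefitinib replicate 2, 0.11 without control replicate 2 or 3, -0.30 to 0.11 over left-out libraries), for KLF1 (-0.44 to 0.31 over left-out libraries; 0.31 without gefitinib replicate 1, 0.19 and 0.10 without control replicates 1 and 2) and for SP7 (-0.42 without gefitinib replicate 1, -0.013 without control replicate 2 or 3, -0.42 to 0.62 over left-out libraries); the cause was not tested. KLF1 rests on 4 gefitinib and 3 control reads and SP7 on 2 and 2, so no direction is read from either. The GC trend removal moved the median of all genes to -0.00, against 0.10. KLF2, KLF17 and genes with few reads are limited by depth.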
